A study of Mus musculus with 6 samples.

Results

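Adipocytes store fatty acids as triglyceride in a lipid droplet, and 34 genes that serve this store were examined in inguinal white adipose tissue (iWAT), a subcutaneous fat depot of the mouse. The genes were chosen by function and by symbol. They make up 5 steps, with 12 genes of the droplet coat, 9 lipases and lipase cofactors, 5 genes of the lipoprotein lipase system, 6 genes of fatty acid uptake and binding, and 2 genes of glycerol release. The count table held 19509 gene symbols, of which 31 were members of this set, and 23 of those 31 passed the filter on low counts and were tested. *Plin4*, *Cidec* and *Fabp5* had no row in the table analysed.

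All mice were C57BL/6 and carried the floxed allele of the long noncoding RNA *Lexis* on both chromosomes (*Lexis* fl/fl). The AdKO mice also carried Cre recombinase under the adiponectin promoter, and the AdWT mice were *Lexis* fl/fl without Cre. Both groups received a Western diet for 12 weeks, and each group had 3 biological replicates. Adiponectin-Cre acts in adipocytes, whereas the RNA came from the whole depot, which also holds vessel, immune and progenitor cells in which the allele is intact. The study used males or females as stated for each experiment and mostly young adult mice, but the sources used here do not state age or sex for these 6 libraries. The question the comparison addresses is how expression in iWAT differs when adipocytes lack *Lexis*.

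The libraries held 14470542 to 17882713 counts. The gene targeted in AdKO was taken to be the lincRNA gene *4930412L05Rik*, annotated on chromosome 4 of NCBIM37 (mm9) from 53217938 to 53230729 on the minus strand. It had 8, 9 and 8 counts in AdWT and 21, 11 and 13 in AdKO, a log2 fold change of 0.87 (SE 0.381, adjusted *p* = 0.851 in edgeR). Its count was thus no lower in AdKO than in AdWT, and 1 count per gene does not separate a deleted exon from the exons that remain, so this count does not check the labels, and AdWT and AdKO name libraries labelled so. Of the thermogenic markers, *Ucp1* had 25, 8 and 7 counts in AdWT and 21, 58 and 67 in AdKO, a log2 fold change of 1.85 (SE 0.574). *Cox8b* had 33.3 to 50.3 CPM (counts scaled to a common library size) in AdWT and 55.8 to 72.5 CPM in AdKO, a log2 fold change of 0.60 (SE 0.167), and *Kcnk3* one of -0.29 (SE 0.0791), and for both the groups did not overlap. These 3 markers had an unadjusted *p* under 0.05 in edgeR and adjusted *p* values of 0.847 to 0.851. Skeletal muscle markers differed between the groups and were highest in AdWT 2. *Ckm*, the creatine kinase of muscle, had 87, 576 and 29 counts in AdWT and 0 in every AdKO library, and *Atp2a1*, the calcium pump of fast fibres, had 208, 1214 and 38 counts in AdWT and 8, 10 and 14 in AdKO.

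A droplet is coated by perilipins, which control the access of lipases, and by CIDE proteins, which let small droplets merge into large ones. Lipolysis proceeds in sequence, with adipose triglyceride lipase (*Pnpla2*) and its activator *Abhd5* taking the first fatty acid from triglyceride, hormone-sensitive lipase (*Lipe*) the next and monoglyceride lipase (*Mgll*) the last, after which glycerol leaves through aquaporins. In the opposite direction, lipoprotein lipase on the capillary wall frees fatty acids from circulating triglyceride, and CD36, the fatty acid transport proteins and the binding proteins of the FABP family bring them into the cell and carry them there.

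The AdWT and AdKO libraries did not overlap in 4 of the 23 genes tested (17.4%), where the share over all rows tested was 11.9%. These were *Cd36*, *Dbi* and *Fabp4* of uptake and binding and *Aqp7* of glycerol release, and each was lower in AdKO. *Cd36* was lower by 48.8%, *Dbi* by 17.8%, *Aqp7* by 15.2% and *Fabp4* by 14.5% in the mean of AdKO relative to AdWT. In the row that stands for each gene, the perilipins, the measured lipases and *Lpl* itself overlapped. No member passed the adjusted threshold of 0.05 in edgeR's quasi-likelihood test, where the smallest adjusted *p* among members was 0.817 and 0.0% of the 9872 rows tested passed. Without adjustment, 566 rows and 3 members, *Cd36*, *Dbi* and *Aqp7*, had a *p* under 0.05 in edgeR. DESeq2 called *Cd36* alone among members, in a test in which 0.392% of 6891 rows were called.

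The largest fold change of the set was that of *Cd36*, the scavenger receptor that takes long-chain fatty acids into adipocytes, muscle fibres, macrophages and capillary endothelium. The gene lies on chromosome 5 of NCBIM37 from 17287508 to 17394777 on the minus strand. The counts of its row were 314, 360 and 213 in AdWT and 149, 163 and 131 in AdKO. In CPM scaled by the trimmed mean of M values (TMM), which sets libraries of different composition on a common scale, this was 20.5, 21.5 and 14.3 against 10.2, 10.7 and 7.87. Every AdKO library lay below the lowest AdWT library, and AdWT 3 and AdKO 3 were the lowest of their groups. The means were 18.8 ± 3.95 CPM (SD, n = 3) and 9.62 ± 1.53 CPM (SD, n = 3). The log2 fold change was -0.97 (SE 0.200, unadjusted *p* = 0.00161 and adjusted *p* = 0.817 by edgeR's quasi-likelihood test), and DESeq2 gave -0.98 with an adjusted *p* of 0.0091. An exact permutation test on log2 CPM, two-sided, gave *p* = 0.1, which is as low as 3 libraries against 3 can reach, so that this test could not reach 0.05 for any gene here. The call by DESeq2 was not made by edgeR under any of the settings tried, in which the adjusted *p* of edgeR ranged from 0.287 to 0.998. The table held 5 rows for *Cd36*, of which 4 were at 0 in every library, so the level rests on 1 row and may be below that of the whole gene. In bulk tissue, fewer cells of a type and less RNA per cell cannot be told apart.

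The 3 genes with an unadjusted *p* under 0.05 are shown with the 150 bases before their RefSeq start, in the GRCm38.p6 build, 5′ to 3′ on the gene's strand, so that what precedes the starts of genes that were lower together can be compared. The windows were searched on both strands for 3 elements found near starts, TATAAA (the TATA box), CCAAT (the CCAAT box) and GGGCGG (the GC box, bound by Sp1), and matches are in capitals. For *Dbi* and *Aqp7*, which have 2 starts each in RefSeq, the more upstream one is given. For *Cd36* 1 start was held. The gene has 4 coding transcripts in the gene models used, so other starts may exist that were not searched.
Cd36, chr5:17835897-17836046, minus strand: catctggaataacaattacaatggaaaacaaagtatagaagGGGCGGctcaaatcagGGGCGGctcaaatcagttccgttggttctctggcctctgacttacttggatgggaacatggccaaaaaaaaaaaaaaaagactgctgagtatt
Dbi, chr1:120121097-120121246, minus strand: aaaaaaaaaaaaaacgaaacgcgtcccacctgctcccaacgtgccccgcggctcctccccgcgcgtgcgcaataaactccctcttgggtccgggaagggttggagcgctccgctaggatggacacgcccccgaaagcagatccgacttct
Aqp7, chr4:41048137-41048286, minus strand: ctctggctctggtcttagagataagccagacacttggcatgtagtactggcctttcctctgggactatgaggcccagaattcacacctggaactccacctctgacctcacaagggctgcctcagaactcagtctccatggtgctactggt

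The window of *Cd36* held 2 GC boxes on the gene's strand, which began 109 and 93 bases before the start, and each was followed by the same run of bases. The windows of *Dbi* and *Aqp7* held none of the 3 elements, and neither did the windows of their other starts. Among 32851 RefSeq windows of the same length, 28.6% held a GC box, 24.5% a CCAAT box and 7.57% a TATA box. Of the element of peroxisome proliferator-activated receptor γ (PPARγ), the receptor that drives adipocyte differentiation, only the last part was searched, and only as exact letters. These were AAAGGTCA and, longer by a base, CAAAGGTCA, from 250 bases before to 50 after a start, on both strands. They stood in 1.51% and 0.478% of all promoters and in none of the 39 promoters held for 26 of the 34 genes. The absence of these letters from such a window describes the window only. *Fabp4* had no entry.

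The genes of fatty acid uptake and binding had 5 members tested, of which 4 were lower, with a median log2 fold change of -0.23. Of these 5, 2 had an unadjusted *p* under 0.05 and 3 had groups that did not overlap, against 5.73% and 11.9% of all rows tested. *Dbi*, the acyl-CoA-binding protein that carries activated fatty acids in the cytosol, lies on chromosome 1 of NCBIM37 from 122009857 to 122017655. Its level was 296, 332 and 334 CPM in AdWT and 274, 245 and 271 CPM in AdKO. The highest AdKO library was thus below the lowest AdWT library. The log2 fold change of *Dbi* was -0.28 (SE 0.0800, unadjusted *p* = 0.00867, adjusted *p* = 0.847 by edgeR's quasi-likelihood test), from means of 321 ± 21.4 and 263 ± 15.9 CPM (SD, n = 3). A second row of *Dbi*, with 32 to 47 counts a library, had a log2 fold change of -0.04 (SE 0.231), and its groups overlapped.

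*Fabp4*, the adipocyte fatty acid-binding protein, had the highest CPM of the genes tested and lies on chromosome 3 of NCBIM37 from 10204347 to 10208576 and has a single row. It took between 2.83% and 3.42% of all counts in each library. Its level was 31871, 33710 and 35049 CPM in AdWT and 28855, 29955 and 27207 CPM in AdKO. Here too the groups did not overlap, and AdKO 3 was lowest and AdWT 3 highest. The log2 fold change was -0.23 (SE 0.131, unadjusted *p* = 0.126, adjusted *p* = 0.853 by edgeR's quasi-likelihood test). DESeq2 gave an unadjusted *p* of 0.0119 and an adjusted *p* of 0.625 for *Fabp4*.

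The fatty acid transport proteins of this set, which couple uptake to activation by coenzyme A, did not share this separation. *Slc27a1* (FATP1) had a log2 fold change of 0.06 (SE 0.132) and *Slc27a4* (FATP4) of -0.01 (SE 0.0873). The groups of *Slc27a4* overlapped between 121 and 133 CPM in AdWT and 114 and 137 CPM in AdKO. The table held 5 rows for *Slc27a1*, and the others that were tested had log2 fold changes of -0.07, 0.43 and 0.36, each with overlapping groups.

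In the step of glycerol release, *Aqp7*, the aquaglyceroporin through which adipocytes release glycerol, was the only member tested. It lies on chromosome 4 of NCBIM37 from 40980107 to 40995172. Its level was 112, 123 and 107 CPM in AdWT and 105, 97.8 and 88.1 CPM in AdKO. The groups did not overlap, though AdKO 1 lay close below AdWT 3. The log2 fold change of *Aqp7* was -0.24 (SE 0.0885, unadjusted *p* = 0.0299, adjusted *p* = 0.851 by edgeR's quasi-likelihood test), from means of 114 ± 7.75 and 96.8 ± 8.34 CPM (SD, n = 3). With libraries scaled by their totals alone the unadjusted *p* of *Aqp7* was 0.0542, and with AdWT 1, AdWT 2, AdKO 2 or AdKO 3 left out it was 0.0501, 0.101, 0.0588 or 0.111 in edgeR's test. *Aqp3*, a related channel whose gene lies near that of *Aqp7*, had only 1 to 6 counts a library and was not tested.

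**Figure D1:**
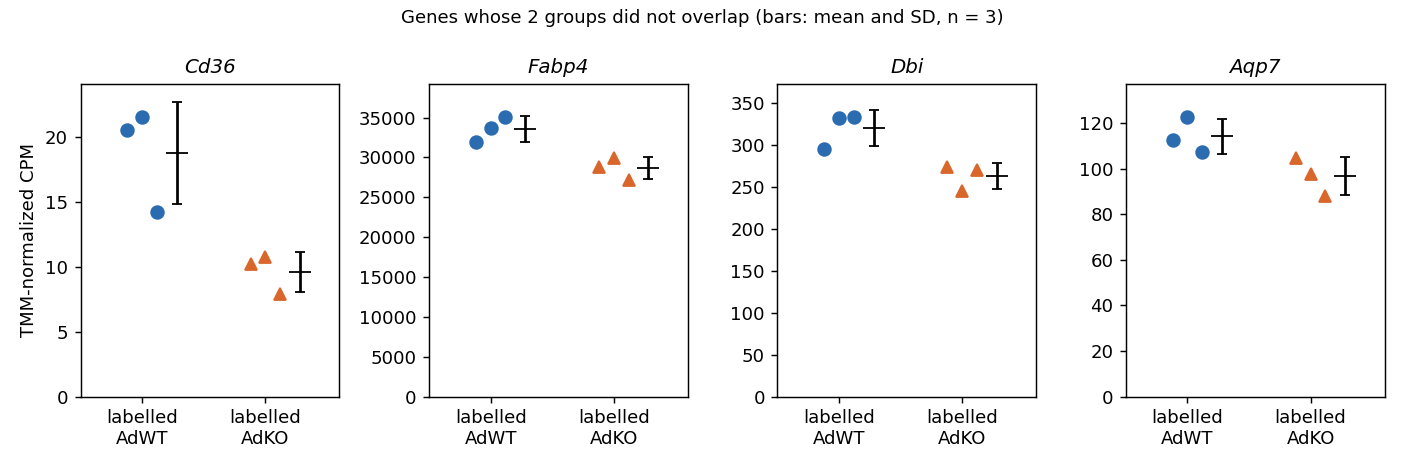
TMM-normalized CPM, on axes from 0, of the 4 genes whose AdWT (circles) and AdKO (triangles) libraries did not overlap, with the mean and SD of each group of 3 beside the points. In all 4 panels the AdKO points sit below the AdWT points; relative to its level the gap is widest for *Cd36*, from 14.3 down to 10.7 CPM, and narrow for *Aqp7*, from 107 to 105 CPM.

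Over the whole set, 16 of the 23 genes tested were lower in AdKO and 7 were higher, with a median log2 fold change of -0.09, beside 0.01 over all rows tested. An unadjusted *p* under 0.05 was reached by 3 of 23 genes (13.0%), all of them lower, where 5.73% of all rows reached it in either direction and 2.98% in the lower direction. The groups did not overlap in 4 of 23 (17.4%), again all lower, where the share was 11.9% of all rows and 5.72% in the lower direction. These shares depend on the scaling. At an unadjusted *p* under 0.05, 48.1% of the rows called were higher in AdKO with TMM and 65.9% with library totals alone. With library totals alone the members called were *Cd36*, *Dbi* and, in the higher direction, *G0s2*. Summed over the row that stands for each member, most of it *Fabp4* and *Lpl*, the set held 48273, 52788 and 50784 CPM in AdWT and 45595, 47956 and 43596 CPM in AdKO, without overlap. By step, the sum of uptake and binding, nearly all of it *Fabp4*, was 32331 to 35531 CPM in AdWT and 27629 to 30362 CPM in AdKO. That of the lipoprotein lipase system overlapped, at 9623 to 13368 and 10969 to 12750 CPM, as did those of the droplet coat and the lipases. The separation of the whole sum thus follows *Fabp4*.

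**Figure D2:**
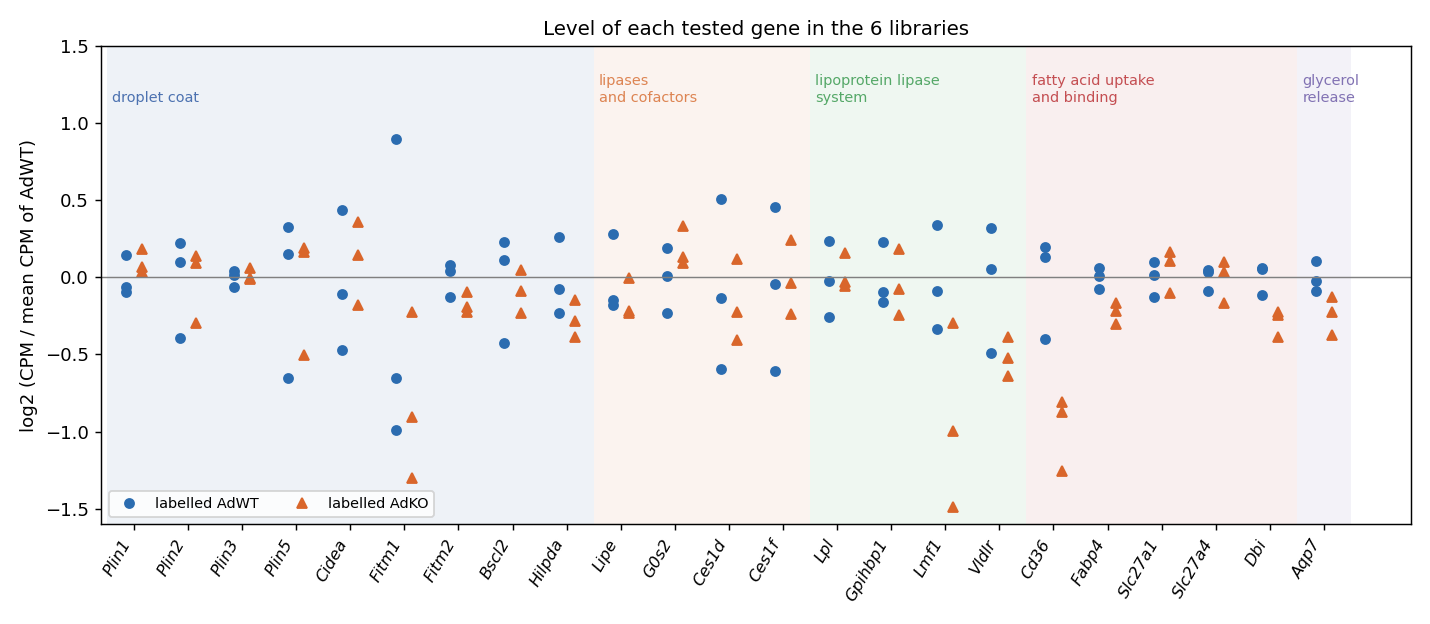
Level of each of the 23 genes tested in every library, as the log2 ratio of its CPM to the mean CPM of AdWT, grouped by step, with AdWT as circles and AdKO as triangles. The 3 AdKO triangles of *Cd36*, *Fabp4*, *Dbi* and *Aqp7* lie below all circles, whereas for the other 19 genes the groups overlap.

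Some marker levels moved with the groups in which these 4 genes were lower. Of 11 adipocyte markers, 7 had a row, none was at 0 in every library, and their summed level ranged from 16914 to 22795 CPM in AdWT and from 14297 to 16754 CPM in AdKO, without overlap. Without *Lep*, a sum taken after the values were seen, it ranged from 7996 to 10915 CPM and from 7541 to 9112 CPM, which overlap. *Lep*, the hormone leptin, made up the largest part, with 8918, 10073 and 11880 CPM in AdWT and 6829, 6756 and 8806 CPM in AdKO, a log2 fold change of -0.46 (SE 0.161, unadjusted *p* = 0.0221 by edgeR). *Adipoq*, whose promoter drives the Cre, had a log2 fold change of -0.25 (SE 0.167) with overlapping groups. *Pck1*, the enzyme of glyceroneogenesis, went the opposite way and was, beside *Lep*, the only marker of the list without overlap, with 88.4, 106 and 92.1 CPM in AdWT and 189, 116 and 148 CPM in AdKO and a log2 fold change of 0.66 (SE 0.172, unadjusted *p* = 0.00579 by edgeR). The part of adipocyte content in the values of *Cd36*, *Fabp4*, *Dbi* and *Aqp7* was not tested.

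For the other cell types in which *Cd36* is known, 8 of 10 endothelial markers had a row and their sum was 1015 to 1463 CPM in AdWT and 990 to 1412 CPM in AdKO. Of 13 macrophage markers 10 had a row, with *Adgre1* at 0 throughout, and their sum was 1095 to 2275 CPM in AdWT and 2005 to 2649 CPM in AdKO. Of the 8 macrophage markers tested, 7 were higher in AdKO and 1 lower (median log2 fold change 0.39). All had overlapping groups, and 1 had an unadjusted *p* under 0.05 in edgeR. Of 22 skeletal muscle markers 17 had a row, with *Myh4* and *Tnnt3* at 0 throughout, and their sum was 63.7 to 250 CPM in AdWT and 51.3 to 51.9 CPM in AdKO, without overlap. *Casq1* and *Myl1*, whose groups overlapped, made up most of the sum in AdKO. Of the 11 muscle markers tested, 10 were lower in AdKO (median log2 fold change -2.13), 7 had an unadjusted *p* under 0.05 in edgeR, all lower, 6 had groups that did not overlap and 4 were called by DESeq2. Without AdWT 2, the library high in these markers, the log2 fold change of *Cd36* was -0.86, and the part of muscle in it was not tested. The sums of progenitor, lymph node, epithelial and thermogenic adipocyte markers overlapped between groups. They were 3297 to 7148 CPM in AdWT and 5312 to 9771 CPM in AdKO for progenitors, 14.99 to 41.4 and 15.3 to 23.6 for lymph node, 0.956 to 20.3 and 0.894 to 48.2 for epithelium, and 288 to 333 and 283 to 289 for thermogenic adipocytes, most of that last sum being *Kcnk3*, with *Cd8a*, *Cr2*, *Ppargc1a* and *Otop1* at 0. The epithelial sum was high in AdWT 3 and AdKO 3 only, and at most 1.44 CPM in every other library. These libraries were also the lowest of their groups for *Cd36*, and the part of epithelium in it was not tested.

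The droplet coat had 9 members tested, 3 higher and 6 lower, with a median log2 fold change of -0.02. In the row that stands for each gene, none had an unadjusted *p* under 0.05 by edgeR or groups that did not overlap, but other rows of *Plin1*, given further on, did. *Plin2*, the perilipin found on droplets of most cell types, had the highest CPM of the coat genes tested, not corrected for length. It had 1996, 1833 and 1301 CPM in AdWT and 1394, 1882 and 1823 CPM in AdKO, with a log2 fold change of -0.01 (SE 0.183). The low libraries of *Plin2* were AdWT 3 and AdKO 1, so the spread within each group exceeded the difference between the groups. *Plin3*, which coats nascent droplets, was the most even, with 112 to 121 CPM in AdWT, 117 to 122 CPM in AdKO and a log2 fold change of 0.02 (SE 0.0634). *Plin5*, the perilipin of oxidative tissues that ties droplets to mitochondria, had 24 to 53 counts a library and a log2 fold change of -0.02 (SE 0.313).

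Of the FIT proteins, which partition newly made triglyceride into droplets, *Fitm2* had the lowest *p* of the coat genes in edgeR. Its level was 290, 326 and 334 CPM in AdWT and 271, 296 and 277 CPM in AdKO, and only AdKO 2 lay above the lowest AdWT library. The log2 fold change of *Fitm2* was -0.17 (SE 0.0790, unadjusted *p* = 0.0657, adjusted *p* = 0.851 by edgeR's quasi-likelihood test). *Fitm1*, known mainly from muscle, had 10 to 47 counts a library and a log2 fold change of -0.73 (SE 0.552), which rests on AdWT 3, since without that library it was 0.06. *Bscl2* (seipin, needed for droplet assembly) had a log2 fold change of -0.09 (SE 0.187) and *Hilpda* (an inhibitor of adipose triglyceride lipase that sits on droplets) one of -0.27 (SE 0.189), with only AdKO 2 of *Hilpda* above the lowest AdWT library. *Cidea*, the CIDE protein abundant in brown fat, had a log2 fold change of 0.13 (SE 0.236) with levels of 27.3 to 51.1 CPM in AdWT and 33.4 to 48.4 CPM in AdKO. *Cideb* had 2 to 19 counts a library and was not tested.

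*Plin1*, the main perilipin of white adipocytes, had 5 rows, and its rows differed from each other. The row with the highest total had 498, 629 and 475 counts in AdWT and 519, 586 and 580 counts in AdKO, a log2 fold change of 0.10 (SE 0.0981). The next row had 432, 485 and 395 counts in AdWT and 496, 460 and 548 counts in AdKO, a log2 fold change of 0.22 (SE 0.0902). The row after it had 186, 231 and 218 counts in AdWT and 145, 176 and 178 counts in AdKO, a log2 fold change of -0.33 (SE 0.132), and the other rows had at most 7 counts a library. After scaling, the groups of these last rows did not overlap, higher in AdKO for the one (unadjusted *p* = 0.0449 by edgeR) and lower for the other (unadjusted *p* = 0.0393 by edgeR). Row 3, the last of these, held 16.6%, 17.1% and 19.96% of all *Plin1* counts in AdWT and 12.5%, 14.4% and 13.6% in AdKO, that is 17.9% ± 1.80 and 13.5% ± 0.942 (SD, n = 3; *p* = 0.1 in an exact two-sided permutation test, as low as it can go). This comparison of rows was chosen after their values were seen, and the table does not say which transcript a row is.

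**Figure D3:**
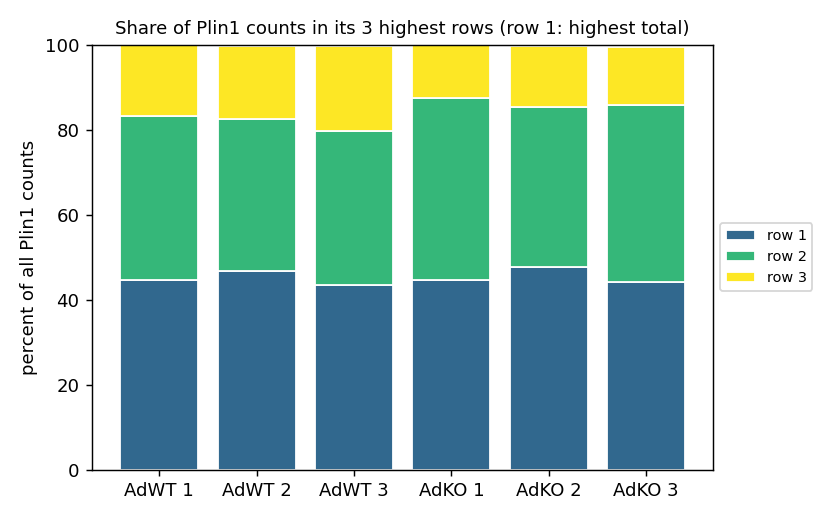
Share of the *Plin1* counts of each library, in percent, that fell in the 3 rows with the highest totals (row 1 highest); the remaining rows are too small to be drawn. The share of row 3 is 16.6% to 19.96% in the AdWT libraries and 12.5% to 14.4% in the AdKO libraries.

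Of the 9 lipases and cofactors, only 4 passed the filter, 2 higher and 2 lower, with a median log2 fold change of -0.07 that became 0.18 without AdWT 3. *Ces1d*, a triglyceride hydrolase of the carboxylesterase family that is bound to droplets, had the highest CPM of those tested, with 1136, 1563 and 2440 CPM in AdWT and 1861, 1293 and 1464 CPM in AdKO. Its AdWT libraries spanned its AdKO libraries, and its log2 fold change was -0.15 (SE 0.272). The paralog *Ces1f*, of the same cluster on chromosome 8, showed the same order of libraries within both groups, with 207 to 433 CPM in AdWT, 268 to 374 CPM in AdKO and a log2 fold change near 0 (SE 0.253), whose sign changed with the scaling. *Ces1e*, which lies between them, had 5 to 67 counts a library, the highest in AdWT 3. How the counting assigned reads that such paralogs share is not given in the sources used here, so these values are uncertain. *Lipe* had 86.0 to 100.6 CPM in AdKO and 88.9 to 123 CPM in AdWT, with a log2 fold change of -0.15 (SE 0.137).

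*G0s2*, the inhibitor of adipose triglyceride lipase, had the largest positive fold change of the set. Its level was 565, 756 and 668 CPM in AdWT and 834, 706 and 725 CPM in AdKO. AdWT 2 reached into the range of AdKO, and the log2 fold change of *G0s2* was 0.19 (SE 0.122, unadjusted *p* = 0.166, adjusted *p* = 0.853 by edgeR's quasi-likelihood test). The enzyme that it inhibits could not be compared. *Pnpla2*, *Lipa* (the lysosomal acid lipase) and *Abhd6* (a monoacylglycerol lipase) were listed at 0 in every library, *Abhd5* had at most 2 counts and *Mgll* 2 to 11.

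Low values were frequent among symbols with several rows. *Pnpla2* had 4 rows, *Lipa* 2, *Abhd6* 4, *Abhd5* 4 and *Angptl4* 2, and the 5 members at or under 3 counts in every library all had several rows. In all, 18 members had several rows and 13 had 1, and 25 of the 69 rows of members were at 0 throughout. Low values in symbols with several rows were also seen in genes that every cell uses, a list made after counts had been seen. The 8 with a single row had totals of 22689 to 474702 over the 6 libraries, whereas 7 of the 9 with several rows had under 500 in their highest row. Single rows could be low too, such as *Gpd1*, at 0 in every library. A member at or near 0 was therefore not read as unexpressed. A count of 0 allows up to 3 counts, that is 0.179 to 0.206 CPM in these libraries, for the row only and for counting error only.

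The lipoprotein lipase system had 4 members tested, 1 higher and 3 lower, with a median log2 fold change of -0.27. *Lpl*, the lipase itself, took 0.906% to 1.23% of all counts. Its level was 10930, 13049 and 9292 CPM in AdWT and 10838, 12352 and 10671 CPM in AdKO, a log2 fold change of 0.03 (SE 0.153). All 3 AdKO libraries of *Lpl* lay within the range of AdWT. *Gpihbp1*, the endothelial protein that anchors the lipase on capillaries, had 311 to 407 CPM in AdWT and 294 to 395 CPM in AdKO, a log2 fold change of -0.03 (SE 0.140).

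The other lower members of this step had low counts. *Lmf1*, the chaperone that lets lipoprotein lipase fold, had 17, 25 and 14 counts in AdWT and 14, 9 and 7 in AdKO, a log2 fold change of -0.86 (SE 0.381, unadjusted *p* = 0.0574, adjusted *p* = 0.851 by edgeR's quasi-likelihood test). *Vldlr*, the very low density lipoprotein receptor, had 47, 90 and 67 counts in AdWT and 48, 42 and 50 in AdKO, a log2 fold change of -0.51 (SE 0.240, unadjusted *p* = 0.0672, adjusted *p* = 0.851 by edgeR's quasi-likelihood test). After scaling, AdKO 1 lay just above the lowest AdWT library in both genes, which was AdWT 3 for *Lmf1* and AdWT 1 for *Vldlr*, and all other AdKO values lay below AdWT. The median of the step rests on *Lmf1*, since with at least 10 counts required in every library that gene drops out and the median was -0.03. *Angptl4*, the secreted inhibitor of the lipase, had a single count in all and was not tested.

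**Figure D4:**
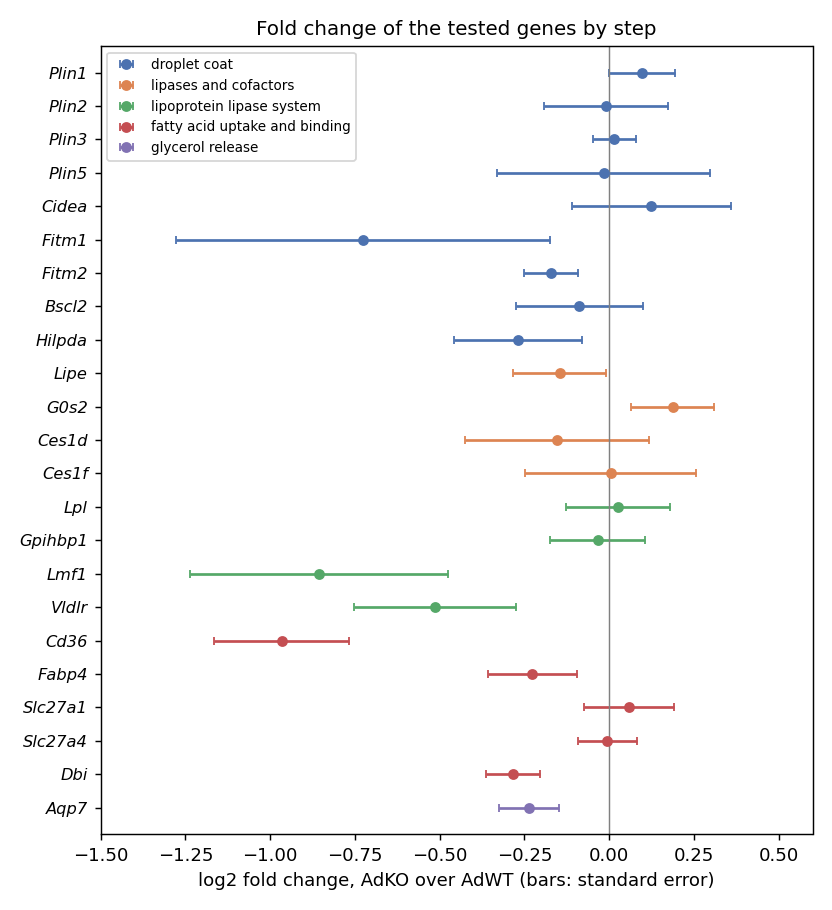
Log2 fold change of AdKO over AdWT for the 23 genes tested, with bars of 1 standard error, coloured by step. *Cd36* lies at -0.97 and *G0s2* at 0.19; *Lmf1*, *Fitm1* and *Vldlr* have low counts and wide bars, and no gene passed the adjusted threshold in edgeR.

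Levels were compared per length, as CPM per kb of the longest coding transcript, for the 13 genes with a single row. On this scale the mean of AdWT was 52658 for *Fabp4*, followed by 906 for *Plin2*, 855 for *Ces1d*, 787 for *G0s2* and 437 for *Gpihbp1*. *Plin2*, *Ces1d* and *G0s2* do not differ beyond the spread of their libraries. Then came *Ces1f* at 164, *Fitm2* at 79.8, *Plin3* at 54.3, *Cidea* at 32.5 and *Slc27a4* at 31.6, with the last pair overlapping. *Fitm1*, *Cideb* and *Aqp3* stood at the end with 1.85, 0.442 and 0.142, and the libraries of *Cideb* overlapped with those of both others.

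**Figure D5:**
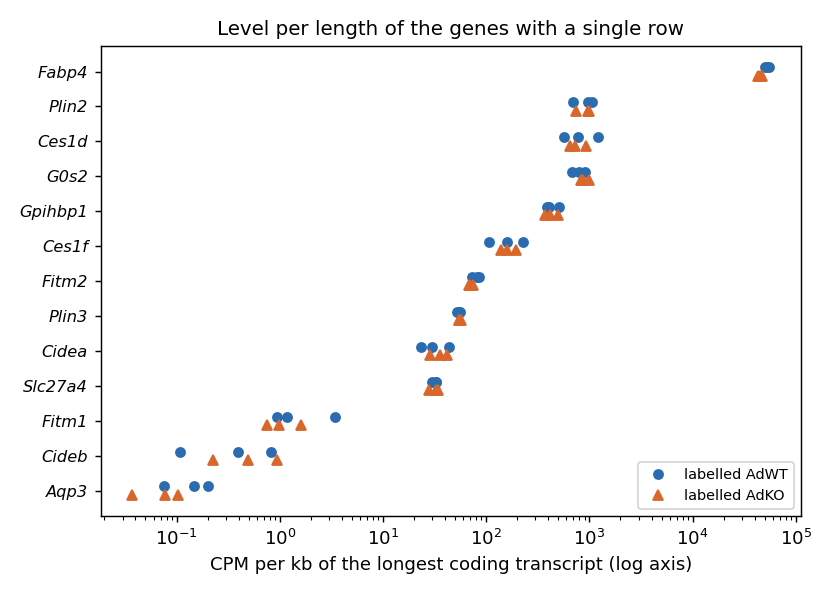
CPM per kb of the longest coding transcript, on a log axis, for the 13 genes with a single row in each AdWT (circles) and AdKO (triangles) library. *Fabp4* stands far above the rest at 52658 in the AdWT mean, *Plin2*, *Ces1d* and *G0s2* overlap, and *Cideb* overlaps with both *Fitm1* and *Aqp3* at the lower end.

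Genes around these steps, such as acyl-CoA synthetases, other transport and binding proteins, the adrenergic and natriuretic receptors and protein kinase A, which switch lipolysis on, and droplet-bound enzymes, were taken from a list of 57. Of these, 39 had a row and 24 were tested, 11 higher and 13 lower, with a median log2 fold change of -0.08. None passed the adjusted threshold in edgeR, and 2 had an unadjusted *p* under 0.05. *Lpin1*, the phosphatidate phosphatase that makes diacylglycerol for triglyceride synthesis, had 116, 94 and 114 counts in AdWT and 58, 71 and 66 in AdKO. Its groups did not overlap, with a log2 fold change of -0.72 (SE 0.187, unadjusted *p* = 0.00567, adjusted *p* = 0.817 by edgeR's quasi-likelihood test). *Hsd17b11*, a dehydrogenase that sits on droplets, had 718, 689 and 694 counts in AdWT and 814, 807 and 891 in AdKO, a log2 fold change of 0.27 (SE 0.0817, unadjusted *p* = 0.0114, adjusted *p* = 0.851 by edgeR's quasi-likelihood test). AdWT and AdKO did not overlap for 9 of these 24 genes, 3 higher and 6 lower, beside 11.9% of all rows. Others of this list whose groups did not overlap were higher for *Lrp1* (log2 fold change 0.22) and *Slc27a6* (0.47), and lower for *Fabp3* (-0.76), *Pnpla3* (-0.21), *Pnpla8* (-0.17) and *Ehd2* (-0.18), none with an unadjusted *p* under 0.05 by edgeR.

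The libraries differed in how often they were extreme. Over the 23 genes tested, AdWT 2 and AdWT 3 were each the highest library in 8, and AdKO 3 was the lowest in 7. AdWT 1 and AdWT 3 were each lowest in 5, AdKO 1 in 3, AdKO 2 in 2 and AdWT 2 in 1. Leaving out AdKO 3, the log2 fold changes of *Cd36*, *Dbi*, *Aqp7* and *Fabp4* stayed below 0, as they did with any other library left out.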

How the data were processed

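RNA was isolated from iWAT of 3 *Lexis*-AdWT and 3 *Lexis*-AdKO mice after 12 weeks of Western diet. Per the study's methods, the authors made libraries with a stranded KAPA kit, sequenced them on an Illumina HiSeq and aligned the reads to mm9 with HISAT2. They deposited raw counts per row of a gene table, with no normalization, and the counting tool is not given in the sources used here. The submitters' processing notes name DESeq2. No column of the table was of another series.

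Groups were taken from the sample titles. Counts of all 37024 rows were tested with edgeR 4.0.16 (glmQLFit and glmQLFTest, filterByExpr by group, TMM) in R 4.3.3, adjusting *p* by Benjamini-Hochberg across the 9872 rows kept (threshold 0.05). Standard errors were obtained as log2 fold change over the root of the F statistic. A symbol with several rows was represented by its row of highest total. CPM are TMM-normalized. For exact permutation tests, in Python 3.11.15, 0.5 was added to CPM before taking log2. The *p* values weigh the difference between the groups against the spread between these libraries. Totals were 14470542 to 17882713 counts, and precision for abundant genes was set by the spread between libraries (common biological coefficient of variation 0.196). The test was also run on simulated data with 200 changed rows, and its outcome is not given here. The changes set there were larger than those of the members, so that run does not speak to smaller ones. Gene positions and transcript lengths came from GENCODE vM1 on NCBIM37, and upstream sequences from RefSeq (GRCm38.p6).

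The alternatives tried were scaling by RLE, by upper quartile or by library size only, DESeq2 1.42.0 (defaults, or with both Cook's cutoff and independent filtering off), a minimum of 1 count in any or 10 in every library, the robust option of edgeR, a block for the replicate number, summed rows, skeletal muscle rows removed, and each library left out in turn.

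The 34 genes, the lists and the tests were chosen with earlier results of these data known. By rule, all members were accounted for, and values per library were given for those with an unadjusted *p* under 0.05, a DESeq2 call or groups that did not overlap, and for the member with the highest CPM and that with the lowest *p* of each step. Pathway genes with an unadjusted *p* under 0.05 were named; others of that list whose groups did not overlap, and the rows of *Plin1*, were named after their values were seen. Some results for single genes are left out of the text.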

Additional observations from a re-analysis of the deposited data

How the results depend on the processing

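Of the 23 genes tested, 11 kept their direction in each of the 17 alternatives in which they were tested (*Lmf1*, 1 of the 11, was not tested with at least 10 counts in every library), among them *Cd36*, *Dbi*, *Aqp7* and *Fabp4*. Leaving out single replicates gave log2 fold changes of -1.14 to -0.84 for *Cd36*, -0.34 to -0.24 for *Dbi*, -0.30 to -0.17 for *Aqp7* and -0.27 to -0.19 for *Fabp4*. DESeq2 called 27 rows and 1 member, *Cd36* (adjusted *p* = 0.0091), and with those 2 filters of DESeq2 (Cook's cutoff, independent filtering) off, 13 rows and 1 member, again *Cd36* (adjusted *p* = 0.0232). With at least 1 count in any library, edgeR called 1 row, and with a replicate left out 0 to 1, the 1 without AdKO replicate 3. At an unadjusted *p* under 0.05, 329 rows were called without AdWT replicate 2 and 1208 were called without AdWT replicate 1. Among the related pathway genes that number was 2, and 8 without AdWT replicate 1, 5 without AdWT replicate 3 and 4 without AdKO replicate 3. The median of the members lay between -0.22 (without AdWT replicate 1) and -0.10 with replicates left out, and 2 to 4 members had an unadjusted *p* under 0.05. Over the same omissions the median of uptake and binding ran from -0.26 to -0.19, of the lipoprotein lipase system from -0.34 to -0.22, of the coat from -0.14 to 0.04 and of the lipases from -0.23 to 0.18 (AdWT replicates 1 and 3 out, respectively). The median of the lipoprotein lipase system was -0.03 with at least 10 counts in every library, where *Lmf1* is no longer tested.

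The other 12 genes changed sign in at least 1 alternative. *Ces1f* was at -0.0115 by DESeq2 with and without its filters, -0.00868 with RLE, -0.00664 with upper quartile scaling and -0.000191 with at least 1 count in any library. With library size only, *Plin2* was at 0.0343, *Plin5* at 0.0341, *Gpihbp1* at 0.00296 and *Slc27a4* at 0.0413. With rows summed, *Plin5* was at 0.0113. With replicates left out, the lowest and highest log2 fold changes were -0.18 and 0.12 for *Plin2*, -0.0198 and 0.0375 for *Plin3*, -0.26 and 0.17 for *Plin5*, -0.0613 and 0.39 for *Cidea*, -1.08 and 0.0599 for *Fitm1*, -0.27 and 0.0392 for *Bscl2*, -0.23 and 0.00975 for *Lipe*, -0.38 and 0.18 for *Ces1d*, -0.22 and 0.29 for *Ces1f*, -0.10 and 0.15 for *Lpl*, -0.16 and 0.10 for *Gpihbp1*, and -0.0682 and 0.0689 for *Slc27a4*. The causes were not tested.

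Samples that share a replicate number correlated at -0.102, -0.116 and 0.352 in their deviations from the group means, so the numbers were not read as pairs. With the replicate number as a block, 418 rows in place of 566 had an unadjusted *p* under 0.05, *Plin2* was at 0.00215, *Plin5* at 0.00202 and *Cd36* at -0.96 (adjusted *p* = 0.941 by edgeR). *Lmf1*, *Plin5* and *Fitm1* rest on at most 53 counts in any library.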
